A study of Mus musculus with 8 samples.

Results

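Cpeb1, Cpeb2, Cpeb3, Cpeb4, Dazl, Pum2, Zfp36l2, Msi1 and Msi2 encode RNA-binding proteins that recognise short sequences in 3′ untranslated regions (3′ UTRs). These 9 genes were taken by symbol from a table of 55385 genes. All 9 were among the 14929 genes that passed the filter on low counts. Msi1, which had no reads at GV, passed through its MII libraries alone, so its values are given without a test and counts of calls between stages are over the other 8. Polyadenylated RNA had been sequenced from pools of mouse oocytes grown in culture from embryonic stem cells (ESCs). MII oocytes, which are eggs arrested at metaphase of the second meiotic division, had been matured for 16 hours and picked by their polar body. GV oocytes, which still hold the intact nucleus (germinal vesicle) of prophase arrest, had been collected on day 11 of growth culture. The study set MII against GV oocytes and a sex-converted XX line against a native XX line.

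There were 4 groups of 2 libraries, which the labels call biological duplicates: sex-converted MII, sex-converted GV, native MII and native GV. The sex-converted oocytes came from the ESC line N2DsRed4XO63R2, XX cells derived from a male line, and the native oocytes from the ESC line H18, both of the strain C57BL/6 x 129/SvJ. All groups carried Blimp1-mVenus and Stella-ECFP reporter transgenes, and in all groups the germ cells had matured inside aggregates with somatic cells of female gonads from embryonic day 12.5. With 1 ESC line of each kind, the effect of conversion and the difference between these 2 lines cannot be told apart. The libraries pooled 35 to 58 MII oocytes or 31 to 158 GV oocytes and held 10306471 to 14999003 counted reads.

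A grown oocyte makes almost no new mRNA, so the proteins of meiosis are drawn from mRNAs that were stored during growth. CPEB proteins bind the cytoplasmic polyadenylation element (CPE) and can hold such an mRNA silent on a short poly(A) tail or, once modified during maturation, have the tail lengthened and the mRNA translated. DAZL, Pumilio and Musashi proteins act on partly overlapping sets of stored mRNAs, while ZFP36L2 binds AU-rich elements and favours decay. Because the libraries were made from RNA selected by its poly(A) tail, a change in the amount of an mRNA and a change in its tail cannot be told apart in these counts.

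The regulators' own 3′ UTRs were searched for the elements that these proteins read, on the transcript strand of the annotated protein-coding transcript with the longest 3′ UTR (GENCODE M21, GRCm38). The 30-base windows printed here hold the CPE nearest to the 3′ end (TTTTAT or TTTTAAT) of the 5 mRNAs that the results turn on, and the Pumilio element (TGTANATA) nearest to the 3′ end of the Pum2 mRNA. Msi1, on the plus strand at chr5:115455656-115455685, was the only one of the 9 with a CPE in its last 100 bases, 42 bases from the end and upstream of a polyadenylation signal (AATAAA or ATTAAA) at 20 bases. The Msi2 window lies on the minus strand at chr11:88339473-88339502, the Cpeb4 window on the plus strand at chr11:31935406-31935435, and the Cpeb1 window on the minus strand at chr7:81347256-81347285. The Dazl window lies on the minus strand at chr17:50279752-50279781 and the Pum2 window on the plus strand at chr12:8750407-8750436. The marked signal lies 100 bases from the end in Msi2 and 213 in Cpeb4, neither of them the last signal of its 3′ UTR. The Pumilio element of Pum2 lies 2164 bases from the end. All windows read 5′ to 3′ along the transcript with T for U. Capitals mark the CPE, the Pumilio element or a polyadenylation signal, which in Cpeb4 overlaps the CPE.
Msi1: gTTTTATtttgttttaaattcctAATAAAt
Msi2: aaTTTTATatttgtattttcaAATAAAtaa
Cpeb4: gggtaattcattTTTTATTAAAgtcatttt
Cpeb1: ttgacttttctTTTTAATttaacgattact
Dazl: aagtcaaaattcTTTTATgtcaccaagtca
Pum2: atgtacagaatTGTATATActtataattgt

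A CPE in the last 100 bases was thus held by 1 of 9 regulators, against 17.8% of 19825 protein-coding genes with a 3′ UTR that long. In the whole 3′ UTR, a CPE was found in 9 of 9 regulators and in 56.6% of 20962 genes, but these 3′ UTRs were 1315 to 5310 bases long and a longer sequence holds more matches. The nearest CPE lay 119 bases from the end in Msi2, 159 in Cpeb2, 217 in Cpeb4, 233 in Cpeb3, 249 in Cpeb1, 375 in Dazl, 817 in Zfp36l2 and 945 in Pum2. A polyadenylation signal stood in the last 100 bases of 9 of 9 regulators and of 78.5% of genes. The Pumilio element was in the last 100 bases of 0 of 9 regulators and 4.25% of genes, and in the whole 3′ UTR of 6 of 9 regulators and 23.2% of genes, with none in Cpeb4, Dazl or Zfp36l2. The AU-rich element TATTTAT was in the last 100 bases of 2 regulators, Cpeb2 and Cpeb4, and of 4.32% of genes. TTTGTTT, a core that DAZL binds, was there in Msi1 and in 6.04% of genes. GTAG, the core that Musashi binds, was there in Zfp36l2 and in 17.3% of genes. A match describes the letters of the annotated sequence and not a bound site, and the 3′ ends used in these oocytes were not measured here.

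**Figure D1:**
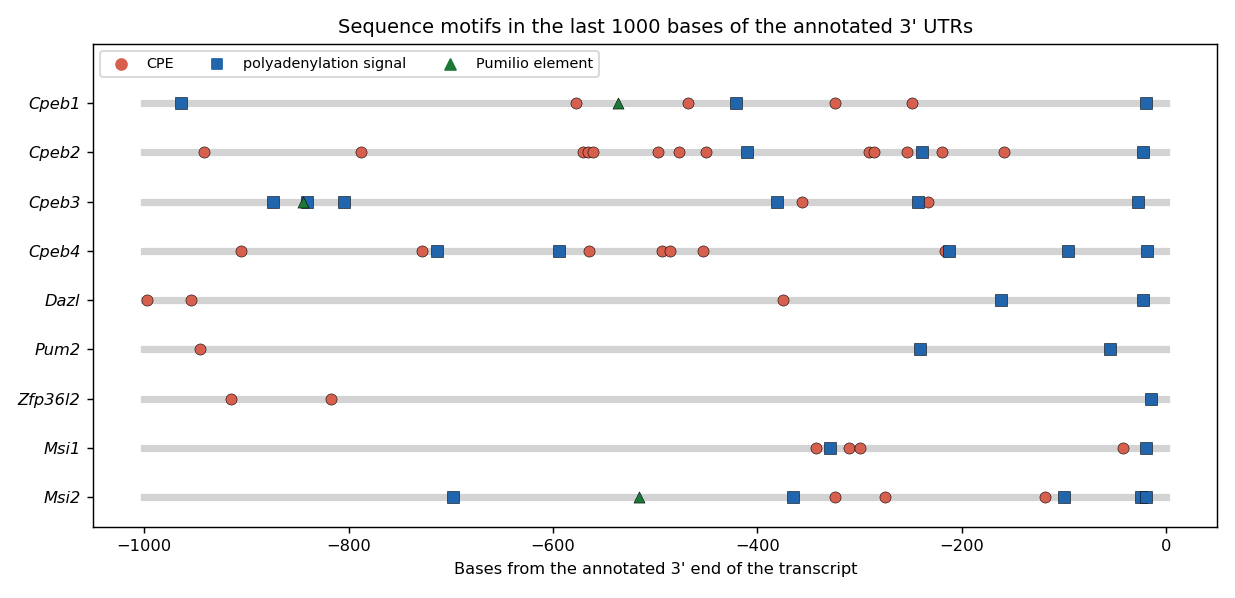
CPEs (circles), polyadenylation signals (squares) and Pumilio elements (triangles) in the last 1000 bases of the annotated 3′ UTR of each regulator, by distance in bases from the annotated 3′ end (0, right). Msi1 has a CPE 42 bases from the end, and the next nearest is that of Msi2 at 119 bases.

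The levels of the regulators differed between the stages. Cpeb1 mRNA fell in MII oocytes of both lines, while Cpeb2, Cpeb3, Cpeb4, Dazl, Pum2 and Msi2 mRNAs rose in both, and Msi1 was read in MII libraries alone. Zfp36l2 fell in the sex-converted line alone, a difference between the lines that did not itself pass a test. In the sex-converted line 8 of the 8 regulators other than Msi1 were called at an adjusted p under 0.05 by edgeR's quasi-likelihood test, 6 higher and 2 lower, where 29.3% of genes tested were higher at MII and 36.2% were lower. In the native line 7 of these 8 were called, 6 higher and 1 lower, where 29.6% of genes tested were higher and 35.7% were lower. The median log2 fold change over the 8 was 1.69 in the sex-converted line and 1.57 in the native line, against −0.35 and −0.31 over all genes tested. The values are counts per 1000000 reads (CPM) scaled by the trimmed mean of M-values (TMM), so each change is relative to other mRNAs and the total mRNA of an oocyte was not measured. Scaling by library totals alone moved the median of all genes by −0.93 in the sex-converted line and −0.91 in the native line, which reversed none of the changes called for these 8 genes but ended some calls that are named with the genes.

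**Figure D2:**
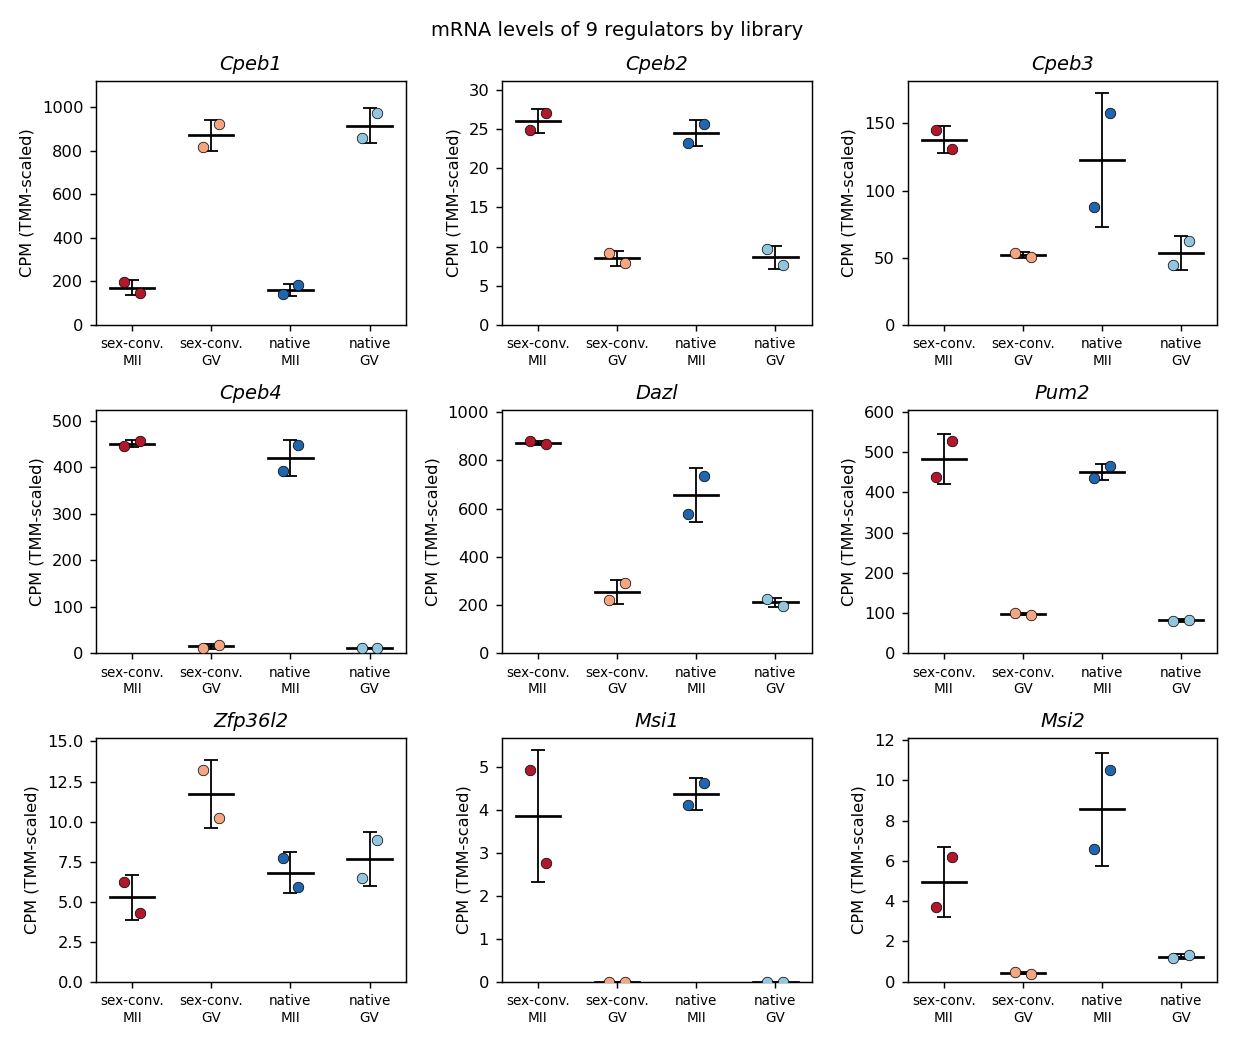
CPM scaled by TMM of each regulator, with 1 panel a gene and a linear axis from 0. Points are the 2 libraries of a group, the horizontal line is their mean and the bar is ± SD. Cpeb1 is low and the 6 genes that rose and Msi1 are high in all 4 MII libraries, and Zfp36l2 groups overlap in the native line.

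Cpeb1, the founding member of the family and the CPE-binding protein that stored mRNAs carry in GV oocytes, had the highest level per kilobase of the 9 at GV and fell about 5-fold. Cpeb1 had 196 and 145 CPM in sex-converted MII oocytes, against 818 and 921 CPM in sex-converted GV oocytes. Native MII oocytes had 139 and 181 CPM, against 857 and 973 CPM in native GV oocytes. All 4 MII libraries were below all 4 GV libraries, with no overlap. The log2 fold change of Cpeb1 was −2.35 ± 0.207 (SE) in the sex-converted line (edgeR's quasi-likelihood test, adjusted p = 3.43e-06) and −2.52 ± 0.208 in the native line (adjusted p = 2.25e-06). These correspond to levels 5.10-fold and 5.72-fold lower at MII.

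Cpeb4, a family member that in Xenopus oocytes takes over from CPEB1 in the second meiotic division, rose the most of the 4 Cpeb genes. Cpeb4 had 445 and 456 CPM in sex-converted MII oocytes, against 11.5 and 18.3 CPM in sex-converted GV oocytes. In the native line MII oocytes had 393 and 447 CPM, against 10.9 and 10.5 CPM in native GV oocytes. The lowest MII library was thus far above the highest GV library. Cpeb4 was 30.1-fold higher at MII in the sex-converted line (95% interval 20.5 to 44.3, edgeR's quasi-likelihood test, adjusted p = 3.22e-07). In the native line Cpeb4 was 39.3-fold higher at MII (95% interval 26.5 to 58.3, edgeR's quasi-likelihood test, adjusted p = 2.40e-07). By log2 fold change Cpeb4 ranked 33 from the top of 14929 genes in the sex-converted line and 42 in the native line.

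Cpeb2 and Cpeb3, which encode the 2 other family members and are best known from neurons, rose by smaller amounts. Cpeb2 had 25.0 and 27.1 CPM in sex-converted MII oocytes, against 9.18 and 7.84 CPM in sex-converted GV oocytes, and 23.3 and 25.7 CPM in native MII oocytes, against 9.69 and 7.60 CPM in native GV oocytes. The stages did not overlap. Cpeb2 changed by a log2 fold change of 1.61 ± 0.268 (SE) in the sex-converted line (edgeR's quasi-likelihood test, adjusted p = 0.000295) and 1.499 ± 0.268 in the native line (adjusted p = 0.000511). Under scaling by library totals alone the native change of Cpeb2 was 0.59 and missed the threshold (edgeR adjusted p = 0.0705, the highest of 11 alternatives, with 7.27e-06 the lowest). Cpeb2 shares 137 exonic bases with Gm7854 on the other strand, which had 0 to 2 reads a library.

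Cpeb3 had 145 and 131 CPM in sex-converted MII oocytes, against 53.4 and 50.5 CPM in sex-converted GV oocytes. Native MII oocytes had 87.7 and 158 CPM, against 44.7 and 62.7 CPM in native GV oocytes. The native MII libraries of Cpeb3 lay farther apart than any other pair of this gene, with no overlap between stages. Cpeb3 changed by a log2 fold change of 1.41 ± 0.282 (SE) in the sex-converted line (edgeR's quasi-likelihood test, adjusted p = 0.0011) and 1.19 ± 0.281 in the native line (adjusted p = 0.00314). Neither call held under scaling by library totals alone, which gave 0.47 (edgeR adjusted p = 0.174, the highest of 11 alternatives, with 1.84e-07 the lowest) and 0.28 (edgeR adjusted p = 0.408, the highest of 11, with 2.89e-05 the lowest). The native call also rested on native MII replicate 2, without which the change was 0.68 (edgeR adjusted p = 0.0610). Cpeb3 shares 116 exonic bases with A330032B11Rik on the other strand, which had 0 to 5 reads a library.

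Within the Cpeb family, the composition turned over between the stages, a comparison that does not depend on the scaling between libraries. Per kilobase of exon, Cpeb4 made up 53.2% ± 4.27 of the summed level of the 4 genes in sex-converted MII oocytes, against 1.06% ± 0.261 in sex-converted GV oocytes (SD, n = 2 each). Cpeb1 made up 30.4% ± 4.44 in sex-converted MII oocytes, against 95.2% ± 0.22 in sex-converted GV oocytes. In the native line Cpeb4 made up 53.6% ± 3.75 at MII, against 0.738% ± 0.0866 at GV, and Cpeb1 30.8% ± 0.693 at MII, against 95.6% ± 0.246 at GV. Cpeb4 thus had the largest share in all 4 MII libraries and Cpeb1 in all 4 GV libraries. Cpeb3 held 13.9% at MII, against 3.23% at GV, in the sex-converted line and 13.1% at MII, against 3.15% at GV, in the native line. Cpeb2 held 2.51% at MII, against 0.504% at GV, in the sex-converted line and 2.55% at MII, against 0.49% at GV, in the native line. The summed level of the family was 133 ± 8.5 CPM per kilobase in sex-converted MII oocytes, against 218 ± 17.6 in sex-converted GV oocytes. It was 124 ± 20.0 in native MII oocytes, against 228 ± 21.1 in native GV oocytes. Unlike the shares, these sums depend on the scaling between libraries.

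**Figure D3:**
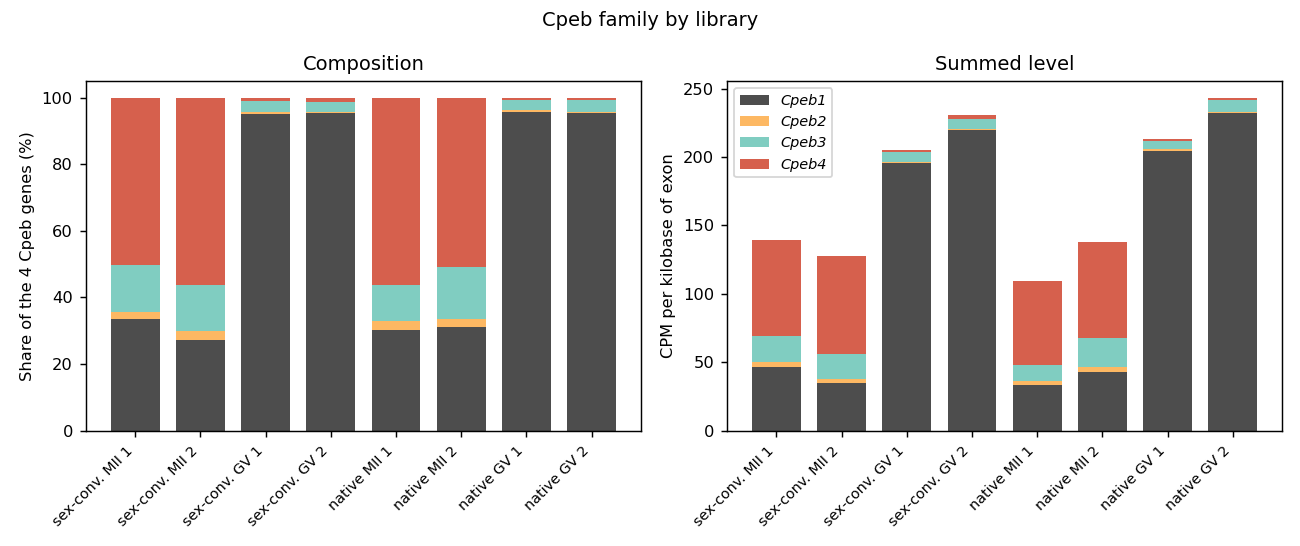
Left, share in percent of each Cpeb gene in the summed level per kilobase of exon of the 4 genes, by library. Right, the summed level in CPM per kilobase of exon. Cpeb4 makes up 50.2 to 56.2% in MII libraries and Cpeb1 at least 95.05% in GV libraries.

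Dazl, the germ cell RNA-binding protein that promotes translation of stored mRNAs, rose about 3-fold. Dazl had 879.6 and 867 CPM in sex-converted MII oocytes, against 221 and 291 CPM in sex-converted GV oocytes. In native oocytes Dazl had 577 and 737 CPM at MII, against 225 and 197 CPM at GV. Both sex-converted MII libraries were above both native MII libraries, and every MII library was above every GV library. The log2 fold change of Dazl between the stages was 1.77 ± 0.195 (SE) in the sex-converted line (edgeR's quasi-likelihood test, adjusted p = 1.55e-05) and 1.64 ± 0.194 in the native line (adjusted p = 2.63e-05).

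Pum2, a Pumilio protein that binds TGTANATA and is known as a translational repressor, rose about 5-fold. Pum2 had 439 and 527 CPM in sex-converted MII oocytes, against 99.3 and 95.9 CPM in sex-converted GV oocytes. Native MII oocytes had 437 and 466 CPM, against 79.7 and 83.9 CPM in native GV oocytes. The stages were far apart and the libraries of a group close together. The log2 fold change of Pum2 was 2.31 ± 0.175 (SE) in the sex-converted line (edgeR's quasi-likelihood test, adjusted p = 1.45e-06) and 2.46 ± 0.176 in the native line (adjusted p = 1.01e-06).

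Musashi proteins bind GTAG cores, and in Xenopus oocytes Musashi acts early on the Mos mRNA. In the sex-converted line Msi1 had 45 and 29 reads at MII, against 0 and 0 reads at GV. In the native line it had 43 and 40 reads at MII, against 0 and 0 reads at GV. The level of Msi1 at MII was low, at 4.93 and 2.76 CPM in the sex-converted line and 4.11 and 4.63 CPM in the native line. Reads of Msi1 were therefore counted in all 4 MII libraries and in none of the GV libraries. A count of 0 allows up to 3 reads over the GV group, which is 0.0804 CPM of Msi1 in the sex-converted and 0.0933 CPM in the native line. By the lower limit of an exact binomial 95% interval on the reads of the 2 stages, Msi1 was at least 37.1-fold higher at MII in the sex-converted line and at least 37.0-fold higher in the native line. The bound moves with the reads behind it. In the sex-converted line the Msi1 bound was 20.4-fold without GV replicate 1, 16.7-fold without GV replicate 2, 26.2-fold without MII replicate 1 and 47.8-fold without MII replicate 2. In the native line it was 16.4-fold without GV replicate 1, 20.7-fold without GV replicate 2, 38.5-fold without MII replicate 1 and 34.3-fold without MII replicate 2. These limits cover counting error only and not the spread between pools.

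Msi2, the second Musashi gene, was detected in every library and was also low. Msi2 had 34 and 65 reads in sex-converted MII oocytes, against 8 and 8 reads in sex-converted GV oocytes, which is 3.72 and 6.18 CPM against 0.477 and 0.39 CPM. The native line had 69 and 91 reads at MII, against 21 and 19 reads at GV, which is 6.59 and 10.5 CPM against 1.17 and 1.34 CPM. All MII libraries were above all GV libraries. Msi2 was 11.3-fold higher at MII in the sex-converted line (95% interval 5.19 to 24.6, edgeR's quasi-likelihood test, adjusted p = 0.000116) and 6.79-fold higher in the native line (95% interval 3.35 to 13.7, adjusted p = 0.000314).

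Zfp36l2, an AU-rich element-binding protein that mouse oocytes need for their maturation, was the only regulator whose call differed between the lines. Zfp36l2 had 6.24 and 4.28 CPM in sex-converted MII oocytes, against 13.2 and 10.23 CPM in sex-converted GV oocytes. Native MII oocytes had 7.73 and 5.90 CPM, against 6.46 and 8.86 CPM in native GV oocytes. The stages did not overlap in the sex-converted line and overlapped in the native line. The log2 fold change of Zfp36l2 was −1.16 ± 0.356 (SE) in the sex-converted line (edgeR's quasi-likelihood test, adjusted p = 0.0142) and −0.16 ± 0.353 in the native line (adjusted p = 0.704). The sex-converted call was lost without sex-converted GV replicate 1 (−0.96, edgeR adjusted p = 0.0771) and without sex-converted MII replicate 2 (−0.91, edgeR adjusted p = 0.117, the highest of 11 alternatives, with 0.000468 the lowest). Under scaling by library totals alone the native line too was called lower, at −1.08 (edgeR adjusted p = 0.0204, the lowest of 11 alternatives, with 0.986 the highest). The difference of the 2 changes was −0.997 with a 95% interval of −2.10 to 0.11 and did not pass the test (edgeR's quasi-likelihood test, adjusted p = 1). Zfp36l2 shares 105 exonic bases with AC132455.1 on the other strand, which had 0 to 2 reads a library.

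The order of the regulators by level per kilobase of exon was the same in both lines at GV. At GV it ran Cpeb1, Dazl, Pum2, Cpeb3, Zfp36l2, Cpeb4, Cpeb2, Msi2 and Msi1 from high to low, and no neighbours overlapped within a group. At MII it ran Dazl, Cpeb4, Pum2, Cpeb1, Cpeb3, Cpeb2 and Zfp36l2, followed by the 2 Musashi genes. At MII the libraries of Cpeb4 and Pum2 overlapped, as did those of Msi1 and Msi2, whose order differed between the lines. At the top, Dazl had 229 ± 2.34 CPM per kilobase in sex-converted MII oocytes and 172 ± 29.6 in native MII oocytes (SD, n = 2 each). Cpeb1 led at GV with 207 ± 17.2 CPM per kilobase in the sex-converted and 218 ± 19.7 in the native line. At the low end, Msi2 had 0.0416 ± 0.00592 CPM per kilobase in sex-converted GV oocytes and 0.12 ± 0.0114 in native GV oocytes.

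Between the lines, none of the regulators passed the test, 9 of them at MII and 8 at GV, where Msi1 had no reads to compare. At MII 0 of 9 were called by edgeR's quasi-likelihood test and 0 by DESeq2, where 0.0134% of genes tested were called, and 0 of 9 had an unadjusted p under 0.05. At GV 0 of 8 were called by either tool, where 0.0134% of genes tested were called, and 1 of 8, Msi2, had an unadjusted p under 0.05. Msi2 was lower in both sex-converted GV libraries than in both native GV libraries, with a log2 fold change of −1.52 and a 95% interval of −2.68 to −0.36 (edgeR's quasi-likelihood test, adjusted p = 1), on 8 to 21 reads a library. The libraries of the lines also stood apart without overlap in 5 other cases that did not pass. Both sex-converted libraries were higher for Dazl at MII, with a log2 difference of 0.41 (95% interval −0.01 to 0.83), Cpeb4 at GV, with 0.49 (−0.01 to 0.99), Zfp36l2 at GV, with 0.62 (−0.14 to 1.37), and Pum2 at GV, with 0.25 (−0.12 to 0.62). Both were lower for Msi2 at MII, with −0.78 (−1.72 to 0.16). Intervals of the sex-converted minus native log2 difference for Cpeb1 were −0.35 to 0.53 at MII and −0.51 to 0.36 at GV. That for Pum2 at MII was −0.27 to 0.46. A p that misses the threshold does not show that the lines had equal levels, and intervals were wide for the genes with few reads, such as −1.42 to 1.04 for Msi1 at MII.

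The change between the stages was also compared between the lines as an interaction, in which the native log2 fold change was subtracted from the sex-converted one. For the interaction 0 of the 8 regulators with reads at both stages were called by edgeR's quasi-likelihood test or by DESeq2, where 0% of genes tested were called, and 0 of 8 had an unadjusted p under 0.05. Over all genes tested the interaction gave 329 with an unadjusted p under 0.05 and 0 called by DESeq2. For Cpeb1 the interaction was 0.17 (95% interval −0.45 to 0.78), for Cpeb4 −0.38 (−1.07 to 0.30) and for Msi2 0.74 (−0.73 to 2.21). No value was taken for Msi1, which was at 0 reads in every GV library.

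**Figure D4:**
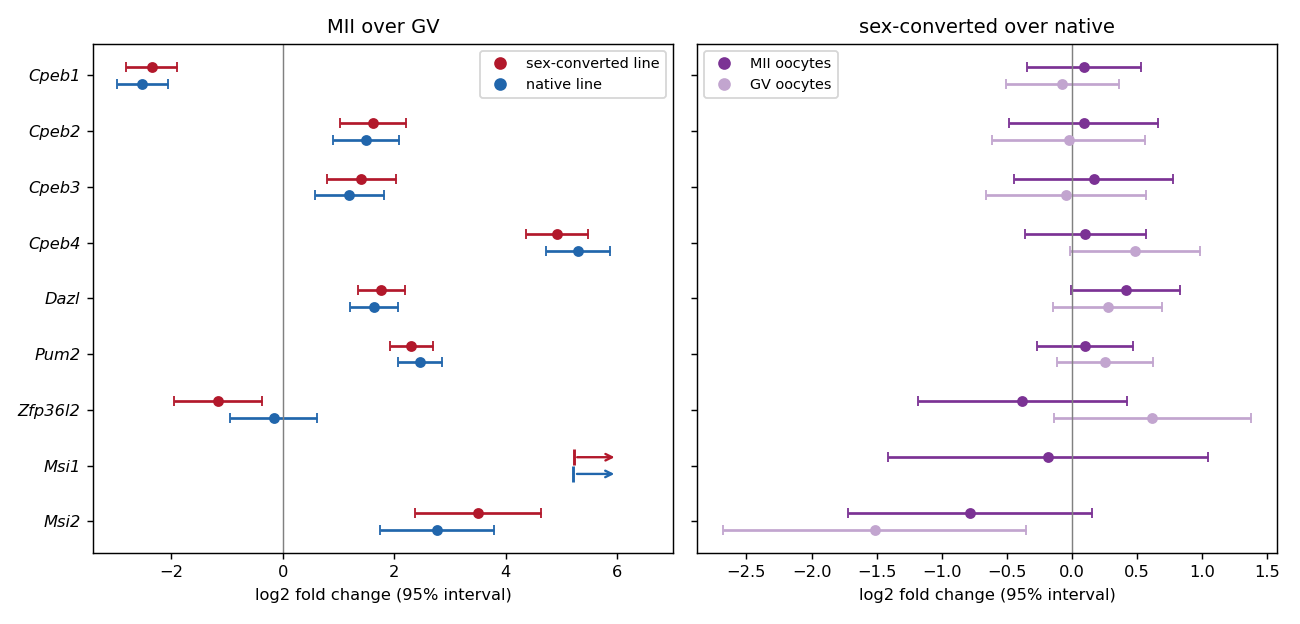
Left, log2 fold change of MII over GV with its 95% interval in the sex-converted (upper, red) and native (lower, blue) line, with the lower bound of Msi1 drawn as a bar and arrow. Right, log2 fold change of sex-converted over native at MII (upper, dark) and GV (lower, light), where Msi1 is left out at GV. The 6 genes that rose and Msi1 lie right of 0 in both lines, and between the lines the interval of Msi2 at GV alone leaves out 0.

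Other genes of the same pathway were taken as 3 lists from general knowledge, chosen with earlier results of these data known. The directions of these lists, and of the first in particular, are therefore not independent evidence. mRNAs known as targets of CPEB1 or DAZL, such as those of cyclin B1 and Mos, rose with few exceptions. In each line 24 of 26 were called higher and 2 lower by edgeR's quasi-likelihood test, with a median log2 fold change of 2.15 in the sex-converted and 2.22 in the native line. Over all genes tested, 29.3% were higher and 36.2% lower in the sex-converted line and 29.6% and 35.7% in the native line, with medians of −0.35 and −0.31. Under scaling by library totals alone, 20 were called higher and 2 lower in the sex-converted line and 19 higher and 2 lower in the native line. Among those called in both lines the largest rises were those of Smad1, a transducer of BMP signals, with 47.9 ± 2.31 CPM at MII, against 2.88 ± 0.22 CPM at GV in the sex-converted line, and of Btg4, an adaptor of the deadenylase complex that clears maternal mRNAs, with 6733 ± 378 CPM at MII, against 552 ± 50.8 CPM at GV (SD, n = 2 each). Smad1 changed by a log2 fold change of 4.05 in both lines and Btg4 by 3.61 in the sex-converted and 3.72 in the native line. The 2 that fell were Ago2, an Argonaute protein, with −1.78 and −1.95, and Dnmt1, the maintenance DNA methyltransferase, with −1.37 and −1.64, in the sex-converted and the native line.

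In the polyadenylation machinery and its partners, more genes were called lower than higher. Of 25 genes, 5 were called higher and 15 lower in each line, with a median log2 fold change of −1.21 in the sex-converted and −0.97 in the native line, against 36.2% and 35.7% lower and medians of −0.35 and −0.31 over all genes tested. Scaled by library totals alone, the counts were 2 higher and 20 lower in the sex-converted line and 3 higher and 20 lower in the native line. Tent2, the cytoplasmic poly(A) polymerase also known as GLD-2, rose to 205 ± 8.89 CPM in sex-converted MII oocytes, against 38.05 ± 4.83 CPM in sex-converted GV oocytes, with log2 fold changes of 2.43 in the sex-converted and 2.42 in the native line. Lsm14a, a protein of cytoplasmic mRNA granules, rose by 2.55 in the sex-converted and 2.48 in the native line. Zar1l, a relative of the maternal mRNA-binding protein ZAR1, changed by −5.09 in the sex-converted and −4.78 in the native line, and Cpsf1, the large subunit of the cleavage and polyadenylation specificity factor, by −3.79 and −3.59. The native values of both rested in part on single MII libraries. Without native MII replicate 1 Zar1l was −6.59 and Cpsf1 −5.09, and without native MII replicate 2 they were −4.05 and −2.95.

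Of 33 other regulators that bind 3′ UTRs, 31 were tested. In the sex-converted line 16 were called higher and 8 lower, with a median log2 fold change of 0.76, and in the native line 17 higher and 9 lower, with a median of 0.73. Over all genes tested 29.3% and 29.6% were higher, 36.2% and 35.7% were lower and the medians were −0.35 and −0.31, in the same order of lines. That balance depended on the scaling. Library totals alone gave 10 higher and 13 lower in the sex-converted line and 10 higher and 12 lower in the native line. The counts of higher genes under TMM include Boll and Igf2bp1, which passed the filter on low counts through MII libraries alone. Their calls are therefore not read as results. At GV Boll had 0.0894 CPM in the sex-converted and 0.0982 CPM in the native line, and Igf2bp1 0.211 and 0.308 CPM. Khsrp, a KH-domain protein that binds AU-rich elements, rose to 1051 ± 162 CPM in sex-converted MII oocytes, against 25.9 ± 9.02 CPM in sex-converted GV oocytes, with log2 fold changes of 5.35 in the sex-converted and 6.05 in the native line. Rc3h1, which encodes the mRNA decay factor roquin-1, rose by 3.45 and 3.73. Stau2, a double-stranded RNA-binding protein of mRNA transport, changed by −2.52 and −2.59, and Fxr2, a relative of the fragile X protein, by −1.72 and −1.67. Leaving out libraries gave −3.11 to −2.10 for Stau2 in the sex-converted and −2.71 to −2.45 in the native line. For Fxr2 it gave −2.24 to −1.33 and −1.94 to −1.30. Between the lines 0 genes of the 3 lists were called at MII or at GV by edgeR's quasi-likelihood test. That test called 0.0134% of all genes tested at each stage, and DESeq2 called 3 of all genes at each stage. Without adjustment, 549 of all genes tested at MII and 319 at GV had an edgeR p under 0.05.

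**Figure D5:**
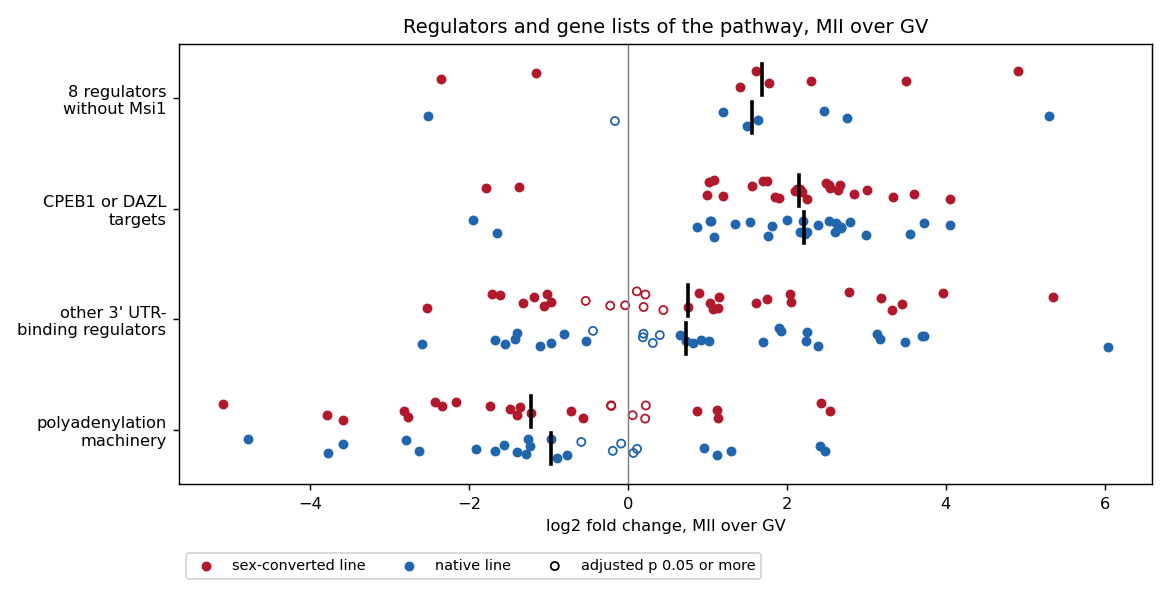
Log2 fold change of MII over GV of the 8 regulators without Msi1 and of the 3 lists, in the sex-converted (upper, red) and native (lower, blue) line. Filled points passed edgeR's adjusted p threshold of 0.05, open points did not, and bars are medians. The targets of CPEB1 or DAZL have medians of 2.15 and 2.22 and the polyadenylation machinery of −1.21 and −0.97.

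Genes with the profile most like that of Cpeb4 and of Cpeb1 were sought among 7379 protein-coding genes with at least 10 CPM on average. Likeness was the root mean square difference of log2 CPM over the 8 libraries, each profile centred on its own mean. Nearest to Cpeb4 were Nhsl1 (0.22), Trp53inp1 (0.225) and Tceanc (0.237). Nearest to Cpeb1 were Vbp1 (0.123), Syt11 (0.128) and Ehd4 (0.141). These values describe the same 8 libraries and carry no test.

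The libraries held the defining genes of oocytes, with 12 of 12 oocyte markers read in every library. Their summed levels were 17046 to 20318 CPM at MII, against 13044 to 15902 CPM at GV, led by Gdf9 in every library. Of these 12 markers, 5 were called higher and 7 lower at MII in the sex-converted line by edgeR's quasi-likelihood test. The native line had 5 higher and 6 lower, and the median log2 fold changes were −0.59 and −0.69. Over all genes tested 29.3% were higher and 36.2% lower in the sex-converted line, and 29.6% and 35.7% in the native line. Markers of somatic cells summed to low levels that were higher at MII, led by single genes. Of 14 granulosa and cumulus markers, 7 to 12 had reads, summing to 116 to 138 CPM at MII, led by Cyp19a1, against 56.4 to 78.1 CPM at GV, led by Nr5a2, and Fshr was at 0 in all MII libraries. Of the 8 tested, 3 were called higher in each line and 1, Fshr, lower. Of 11 stromal and theca markers, 5 to 7 had reads, summing to 3.71 to 20.5 CPM at MII, against 1.62 to 2.44 CPM at GV, with Col1a2 and Lum at 0 in all libraries. Of the 5 tested, 2 were called higher in each line, Vim and Acta2, and 0 lower. At GV Vim had 0.084 CPM in the sex-converted and 0.147 CPM in the native line, and Acta2 had 0 CPM in both. Fshr, Vim and Acta2 passed the filter on low counts through 1 stage alone, so their calls are not read as results. Of 8 blood and endothelial markers, 4 to 6 had reads, summing to 207 to 292 CPM at MII, against 77.6 to 115 CPM at GV, led by Pecam1, with Hba-a1 at 0 in all libraries. Of the 4 tested, 2 were called higher and 1 lower in the sex-converted line and 1 higher and 1 lower in the native line. These sums moved with the stage, as did the few reads of Msi1 and Msi2, and their part in the levels of the regulators was not tested.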

How the data were processed

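Per the labels' protocols, polyadenylated RNA of pooled oocytes was made into stranded libraries with 13 PCR cycles and read as single reads of 75 bases. The authors deposited unnormalized counts, 1 per gene and library. Trimmomatic 0.38, HISAT2 2.1.0, featureCounts 2.0.0, DESeq2 1.30.1 and the build mm10 are named, without roles, per the submitters' processing notes. Strand setting, handling of reads that match several places, and annotation release: none is given in the sources used here, so reads of overlapping genes on opposite strands may not have been separated. Names, exon lengths, coordinates and transcript sequences came from GENCODE M21 (GRCm38), with 55144 gene identifiers matched without version and 241 not.

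All 8 libraries entered 1 fit in edgeR 4.0.16 (R 4.3.3) with a coefficient per group, TMM factors (0.714 to 0.733 at MII and 1.33 to 1.43 at GV), filterByExpr at a minimum count of 10 and two-sided quasi-likelihood tests with 4 residual degrees of freedom. Calls used a Benjamini-Hochberg adjusted p under 0.05 over all 14929 genes tested. The common biological coefficient of variation was 0.243. SEs are approximate, from the fold change and its F statistic. P-values rest on the spread between replicate pools, estimated over all 4 groups together and with information from other genes. They do not measure the spread between the 2 pools of a group. The script was tested on simulated counts. Replicates of a group differed beyond counting noise (chi-square per gene 11.0 to 43.4), so none was counted as a duplicate.

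The 9 regulators and the lists were chosen with earlier results of these data known, so the target list in particular is not independent evidence of its direction. Besides the 9, the text names from each list the 2 largest rises and 2 largest falls called in both lines at 10 CPM or more in the higher stage, and the 3 genes of nearest profile, with a pseudocount of 0.5 CPM. Motif windows were the last 100 bases of the transcript with the longest 3′ UTR, a choice made after a shorter annotated 3′ UTR of Cpeb4 was seen. Alternatives were another scaling, DESeq2 1.42.0, other filters, the compared groups alone, a replicate block and leaving out each library.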

Additional observations from a re-analysis of the deposited data

How the results depend on the processing

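Msi1, whose call between stages followed from its 0 reads in every GV library, is left out of the counts of regulators called. Of the other 8, edgeR and DESeq2 each called 8 in the sex-converted line and 7 in the native line. By edgeR 29.3% of all genes tested were higher and 36.2% lower in the sex-converted line, and 29.6% and 35.7% in the native line. A minimum mean of 50 reads left Msi1 and Msi2 untested. Over the genes named, 6 of the alternative values between stages lost the call, 1 gained it and 1 reversed, and the others kept their direction and call. The reversed value was that of Zfp36l2 in the native line, which ranged from −0.39 to 0.072 as libraries were left out. Between the lines 181 kept and 11 reversed, and for the interaction 104 kept and 7 reversed, none of them called. With library totals Cpeb2 at GV was 0.028. Leaving out libraries gave, at MII, −0.13 to 0.31 for Cpeb1, −0.18 to 0.67 for Cpeb3, −0.026 to 0.24 for Pum2 and −0.65 to 0.19 for Msi1. At GV it gave −0.17 to 0.018 for Cpeb1, −0.19 to 0.17 for Cpeb2 and −0.26 to 0.21 for Cpeb3. For the interaction it gave −0.048 to 0.39 for Cpeb1, −0.077 to 0.29 for Cpeb2, −0.13 to 0.72 for Cpeb3, −0.68 to 0.012 for Cpeb4 and −0.054 to 0.36 for Dazl. Over all genes the lines differed in 2 at MII, against 34 without a filter on low counts, 1 with the compared groups alone, 0 with library totals, 0 with a minimum mean of 50 reads, and 0 to 3 as libraries were left out. At GV they differed in 2, against 13 without a filter, 1 with the compared groups alone and 1 to 3 as libraries were left out. The interaction had 0 genes, against 3 without a filter. The cause of these shifts was not tested. With the whole 3′ UTR in place of the last 100 bases, 9 regulators held a CPE and 6 a Pumilio element, and 9 each held the AU-rich element, the DAZL core and the Musashi core, against 27.5%, 37.0% and 74.5% of genes.

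Replicate numbers did not pair the libraries. For each gene, the log2 CPM of replicate 2 was subtracted from that of replicate 1 within each group. Correlations of these differences between groups ran from −0.443 (sex-converted GV with native GV) to 0.171 (sex-converted MII with native MII). At GV the replicate differences thus tended to run in opposite directions in the 2 lines. With a replicate block, the 8 regulators counted, which leave out Msi1, all kept their calls between stages in both lines. With that block 0 regulators were called between the lines or for the interaction. All genes called between the lines with that block were 0 at MII and 2 at GV. A block with crossed numbers at GV, added after seeing the data, gave 0 regulators and 2 genes. Depth limits Msi1, Msi2 and Zfp36l2, which had 0 to 222 reads a library.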

Other observations

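Over all genes tested, mRNAs with and without a CPE near the 3′ end differed in their change between the stages, given here as a description with no test. Of the protein-coding genes tested with a 3′ UTR of at least 100 bases, 2379 had a CPE in the last 100 bases and 9669 had none. The median log2 fold change of MII over GV was 1.07 with a CPE and −0.56 without in the sex-converted line, and 1.03 with and −0.51 without in the native line. In the sex-converted line 52.4% of genes with a CPE there were called higher by edgeR's quasi-likelihood test, against 27.0% of those without, and in the native line 52.8%, against 27.4%. Genes with the AU-rich element TATTTAT (540) had medians of 0.49 in the sex-converted and 0.58 in the native line, against −0.30 and −0.23 without it. For the DAZL core TTTGTTT (732 genes) the medians were 0.30 and 0.35, against −0.29 and −0.23, and for the Pumilio element (590 genes) 0.15 and 0.23, against −0.27 and −0.22. The Musashi core GTAG (2122 genes) gave medians of −0.24 and −0.22, against −0.25 and −0.17, so mRNAs with and without it lay close together. The polyadenylation signal, which the regulators do not read, divided the genes as well, with medians of −0.03 and 0.02 for 9839 genes with it and −1.29 and −1.18 for 2209 genes without. The T-rich elements share base composition with one another, and poly(A) tails were not measured, so the part of either in these values was not tested.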
